A study of Mus musculus with 7 samples.

Results

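The urea cycle enzymes were described in the liver of old female mice. They were chosen by name: 7 genes were listed, and 6 of them, Glud1, Cps1, Otc, Ass1, Asl and Arg1, had a probe set whose platform annotation names a single gene. Gls2, the glutaminase of the liver, lacked such a probe set and was not analysed here. The 6 genes were read by 8 of the 10833 probe sets with a single gene symbol, and they were 6 of 8251 named genes. Total liver RNA of 7 mice, numbered 1, 2, 3, 4, 6, 7 and 8, was hybridised to 1 Affymetrix U74Av2 array each. All 7 were female, ate standard pelleted food without restriction and were killed at 24 to 26 months of age. Titles and source names call them phenotypically normal, of genotype +/+ or +/df, so the group may mix animals with and without a copy of the dwarf allele df. The description field instead names the Ames dwarf genotype df/df, and the titles were followed here. There was 1 group, so no comparison of treatments was possible. The data give the level of each enzyme transcript and its spread between animals. Separate animals are implied by the labels but not stated, and part of the spread may be technical.

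The urea cycle turns toxic ammonia, released when amino acids are broken down, into urea for excretion, and the hepatocytes around the portal vein carry most of it. Gls2 and glutamate dehydrogenase (Glud1) release ammonia inside the mitochondrion. Carbamoyl phosphate synthetase (Cps1) and ornithine transcarbamylase (Otc) fix it there and form citrulline. Argininosuccinate synthetase (Ass1), argininosuccinate lyase (Asl) and arginase (Arg1) complete the cycle in the cytosol and return ornithine to the mitochondrion. Hepatocytes around the central vein capture ammonia that escapes by making glutamine with Glul.

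RefSeq promoter windows of assembly GRCm38.p6, from 250 bases before to 50 bases after the annotated start, were on hand for 3 of the 6 enzymes. They are shown because they run from CpG-poor to CpG-rich, a feature that the choice of genes did not use. The Glud1 window (chr14:34310477-34310776, plus strand) held 51 CpG dinucleotides, the Ass1 window (chr2:31470020-31470319, plus strand) 27 and the Otc window (chrX:10252055-10252354, plus strand) 1. The median over 32817 windows was 7, and 99.3%, 84.5% and 5.43% of windows held fewer than Glud1, Ass1 and Otc respectively. The letters TATAA, searched on both strands, matched in the Ass1 window, where the matches on the 2 strands overlap, and in neither of the other windows. The Ass1 matches begin at positions 3 and 4 from the annotated start, within the 50 bases after it. Of all windows 24.9% held a match. The letters TTGCNNAA, a C/EBP-like motif found in 10.8% of windows, and CAAAGNNCA, an HNF4-like motif found in 6.36%, were also searched on both strands and matched in none of the 3 windows, which says only that these letters are not in these windows. No measurement here bears on the activity of these promoters. Capitals mark CpG dinucleotides, and each window reads 5′ to 3′.
Glud1: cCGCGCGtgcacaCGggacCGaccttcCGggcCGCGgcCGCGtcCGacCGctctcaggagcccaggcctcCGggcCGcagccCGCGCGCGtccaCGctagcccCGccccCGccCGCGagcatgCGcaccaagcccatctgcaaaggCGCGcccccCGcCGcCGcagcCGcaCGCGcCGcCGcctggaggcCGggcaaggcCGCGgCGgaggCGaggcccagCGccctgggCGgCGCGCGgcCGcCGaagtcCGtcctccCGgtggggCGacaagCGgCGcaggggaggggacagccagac
Ass1: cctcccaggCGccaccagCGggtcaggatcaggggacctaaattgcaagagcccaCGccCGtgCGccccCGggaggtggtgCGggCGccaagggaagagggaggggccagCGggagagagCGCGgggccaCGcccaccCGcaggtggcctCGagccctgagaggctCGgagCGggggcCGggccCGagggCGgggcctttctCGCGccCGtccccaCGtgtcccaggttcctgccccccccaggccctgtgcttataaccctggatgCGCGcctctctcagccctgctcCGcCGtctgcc
Otc: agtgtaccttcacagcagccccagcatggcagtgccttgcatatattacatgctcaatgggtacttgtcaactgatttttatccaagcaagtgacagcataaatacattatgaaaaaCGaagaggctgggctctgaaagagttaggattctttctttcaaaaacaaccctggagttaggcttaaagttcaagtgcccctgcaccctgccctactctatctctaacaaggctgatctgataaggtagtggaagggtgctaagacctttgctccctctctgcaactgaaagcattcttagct

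Signals are intensities scaled to a common mean per array, given as the mean ± SD over the 7 arrays. Signals of different probe sets do not rank transcript amounts, so the level of each enzyme is compared only with itself across animals. The percentile given beside a level shows only how bright its spot was among the 8251 named genes. The 3′ to 5′ ratio of the array's control for Gapdh ran from 0.788 to 0.907 and that for beta-actin from 1.31 to 1.78. The bacterial spike-in controls divided the arrays: replicates 1 to 4 had mean log2 signals of 10.64 to 10.97, and replicates 6 to 8 had 10.20 to 10.24. The labels name no batch. All 8 hepatocyte markers were tested, with Alb, the plasma albumin, the brightest at 31853 ± 3080. Intestine and kidney also express parts of this pathway. Of 6 kidney markers, none had a mean above 75.1, and 4 of the 5 measured intestinal markers had means of 48.4 or lower, Vil1 among them at 3.57. Fabp2, a fatty acid binding protein, was the exception at 1244 ± 159. The summed signal of 8 skeletal muscle markers ran from 2216 on replicate 8 to 11233 on replicate 1. Acta1 alone was 5991 on replicate 1. Atp2a1, Myl1, Eno3 and Tnnt3 were also highest there, Pvalb was highest on replicate 2, and Ckm and Myh4 were lowest on replicate 1.

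Of the mitochondrial enzymes, Cps1 had the smallest SD relative to its mean, and Otc and Glud1 had larger ones. The SD expected of genes at its signal level was also smallest for Cps1, and differences in spread between enzymes were not tested. Cps1 (NCBI gene 227231), which makes carbamoyl phosphate from ammonia and commits nitrogen to the cycle, had a signal of 22825 ± 1240 (SD, n = 7), at the 99.9th percentile of spots. Its lowest value was 21331 on replicate 8, its median 22655 and its highest 25120 on replicate 3. The highest animal was 1.18-fold above the lowest. Replicate 3 stood above the other 6, and without it the SD of the log2 signal was 0.05, against 0.08 with it. With quantile normalization, which by construction evens out the brightest spots, that SD was 0.03. In bulk liver, fewer hepatocytes and less RNA per hepatocyte cannot be told apart.

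Otc (NCBI gene 18416), an X-linked enzyme that joins carbamoyl phosphate to ornithine, had 7002 ± 801. It ran from 6137 on replicate 6 over a median of 6836 to 7945 on replicate 2, a 1.29-fold range. The animals fell into a low set, replicates 6, 7 and 8 at 6137, 6163 and 6430, a high set, replicates 2, 3 and 4 at 7945, 7627 and 7877, and replicate 1 between them.

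Glud1 (NCBI gene 14661), which oxidises glutamate and sets its ammonia free, had 4072 ± 522. Its lowest value was 3107 on replicate 4, its median 4075 and its highest 4673 on replicate 8, a 1.5-fold range. Replicate 4 lay below the next value, 3808. Without it the log2 SD of Glud1 was 0.11, against 0.20 with it. A second Glud1 probe set, which can read related sequences, was dim at 72.8 ± 17.8, near the floor of 50.04 set on signals here. The 2 probe sets had r = -0.556 across the 7 animals, so they did not order the animals alike.

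Among the cytosolic enzymes only Asl had a second probe set to compare. Arg1 and Ass1, like Cps1 and Otc, were read by 1 probe set each. Arg1 (NCBI gene 11846), which splits arginine into urea and ornithine, had 14377 ± 826, at the 99.4th percentile of spots. It ran from 13520 on replicate 7 over a median of 14415 to 15836 on replicate 4, a 1.17-fold range. Replicate 4 stood above the next value, 14971, and without it the log2 SD was 0.06, against 0.08 with it. Ass1 (NCBI gene 11898), which joins citrulline to aspartate and so brings in the second nitrogen of urea, had 1208 ± 148. Its lowest value was 1016 on replicate 1, its median 1227 and its highest 1451 on replicate 2, a 1.43-fold range. Replicates 1 and 8, at 1016 and 1031, were low, replicate 2 was high, and the other 4 lay between 1219 and 1256.

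Asl (NCBI gene 109900), which splits argininosuccinate into arginine and fumarate, was the dimmest spot of the 6, at 324 ± 62.3 and percentile 57.1. It ran from 256 on replicate 3 over a median of 294 to 420 on replicate 4, a 1.64-fold range, with replicates 4, 8 and 6 above the other 4. Its second probe set, of a relaxed design, had a like mean of 316 ± 63.8 but another order of animals. Replicate 8, second highest on the first at 390, was lowest on the second at 229, and r between the 2 was 0.174. Replicate 4 was high on both, at 420 and 387. The order of the other animals in Asl therefore depends on the probe set.

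**Figure D1:**
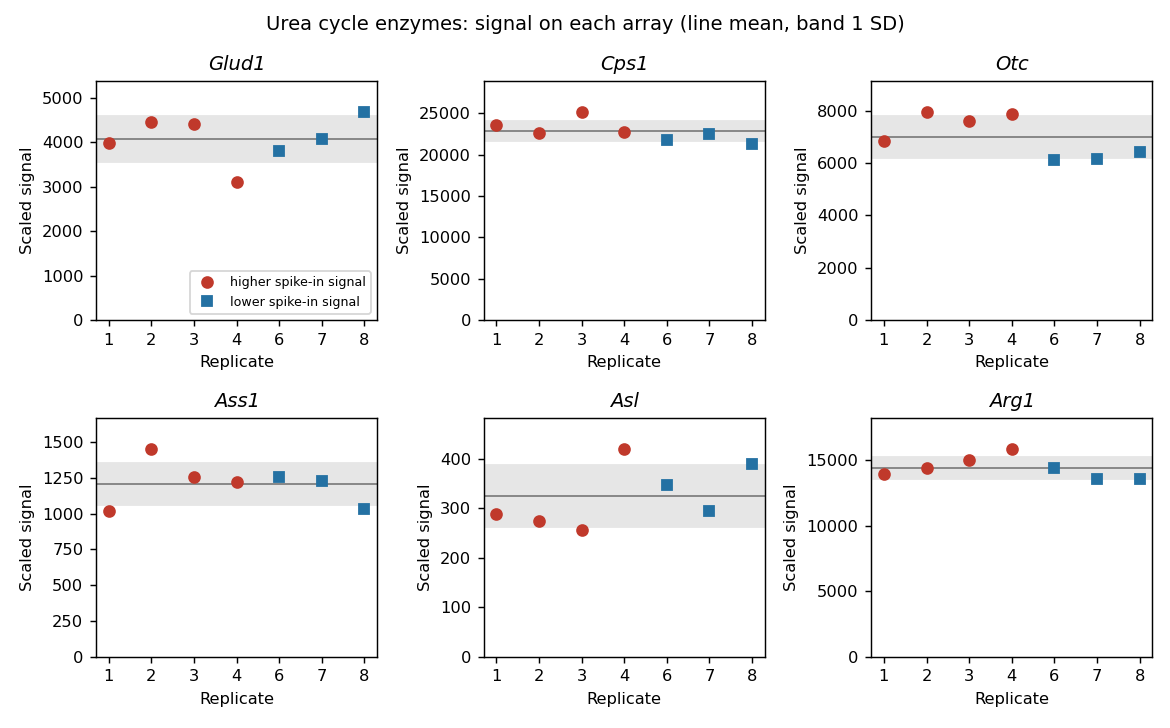
Scaled signal (y axis, linear from 0) of 6 urea cycle enzymes on each of 7 arrays (x axis, replicate number). The line is the mean, the band is 1 SD, red circles are the 4 arrays with the higher spike-in signal and blue squares the 3 with the lower. Cps1 and Arg1 stay close to their means of 22825 and 14377, Glud1 is lowest on replicate 4 at 3107, and Otc is lower on replicates 6 to 8.

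The spread of no urea cycle enzyme passed the test against genes of like signal, and neither did that of any other gene. A limma-based test set the variance of each of 4481 tested genes against that expected at its level, with Benjamini-Hochberg adjustment over all of them. At an adjusted p under 0.05 it called 0 of the 6 enzymes, and it called 0% of all tested genes. At an unadjusted p under 0.05 it called 0 of the 6 and 301 of all genes, 6.72%. The adjusted p was 0.990 for Glud1, Otc, Ass1 and Asl and 0.995 for Cps1 and Arg1. Their log2 SDs were 0.20, 0.16, 0.18 and 0.27, and 0.08 and 0.08, in that order. The median was 0.17 over the 6 enzymes and 0.18 over all tested genes. Cps1 and Arg1 had SDs of 0.647 and 0.650 times the value expected at their level, while the other 4 lay between 1.09 times for Ass1 and 1.35 times for Glud1. Thus 2 of 6 were under the expected value, against 50.9% of tested genes. Only 3.50% of tested genes had a smaller log2 SD than Cps1 and 4.37% a smaller one than Arg1, a share that bright spots reach more easily. Relative to the expected SD, 15.4% and 15.7% of tested genes lay lower. The test looks only for excess spread, so low spread was not tested. Since it passed no gene at all (smallest adjusted p 0.096, for Acta1), missing it does not show that the enzymes varied no more than other genes.

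**Figure D2:**
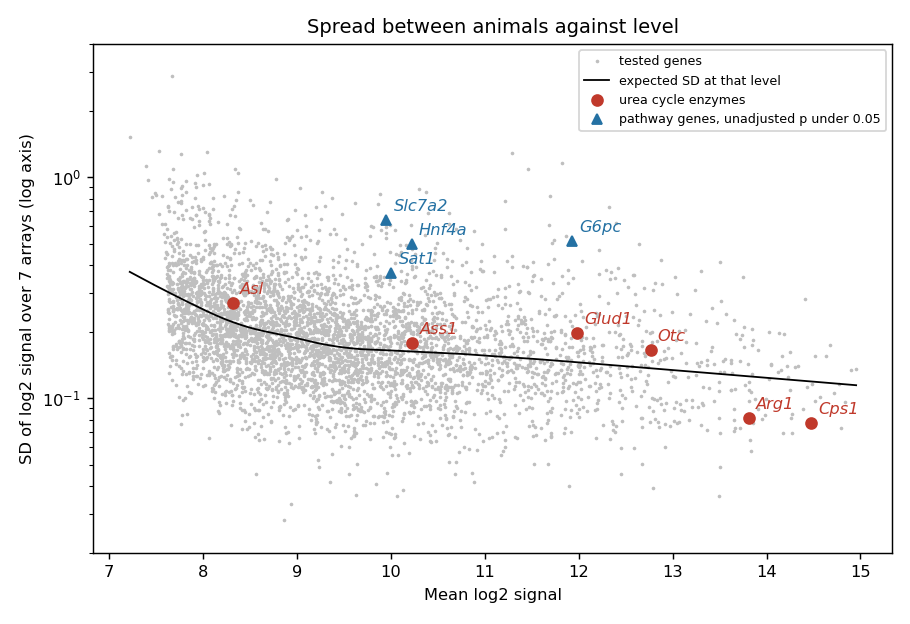
SD of the log2 signal over 7 arrays (y axis, log scale) against the mean log2 signal (x axis) for 4481 tested genes (grey). The black line is the SD expected at each level, red circles are the 6 urea cycle enzymes and blue triangles are the 4 related genes with an unadjusted p under 0.05. The enzymes lie from 0.647 to 1.35 times the line, with Cps1 and Arg1 beneath it.

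Pairs of enzymes went both ways across animals. Over the 15 pairs of enzymes the median Pearson r of log2 signals was 0.01, and 8 pairs were above 0, or 53.3%. Over all pairs of tested genes the median was also near 0 and 50% were above 0. Pairs ran from r = -0.663 for Cps1 with Asl to r = 0.730 for Otc with Arg1, each over the same 7 arrays. The deviations show different animals at the extremes: replicate 4 was 0.38 below the mean of Glud1 and 0.39 above that of Asl on the log2 scale, replicate 2 was 0.27 above the mean of Ass1, and replicate 3 was 0.14 above that of Cps1.

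Enzymes that act in succession were tested in pairs. Gls2 and Glud1 could not be compared, which left 5 pairs. For Cps1 and Otc, the mitochondrial steps, r was 0.541 (exact two-sided permutation p = 0.214, adjusted over the 5 pairs 0.768) and rho was 0.571 (exact p = 0.20, adjusted 0.589). Without the 2 animals farthest from the median of Cps1, r was 0.40. With the means of the 2 spike-in array sets removed it was -0.344, and with quantile normalization it was -0.736, so even its direction depended on the processing. Quantile normalization left Cps1 a log2 SD of only 0.03, so the latter r rests on little spread. For Otc and Ass1, r was 0.450 (exact p = 0.320, adjusted 0.768) and rho 0.286 (exact p = 0.556, adjusted 0.744). Without the 2 farthest animals that r was 0.01, and with set means removed 0.588. For Ass1 and Asl, r was -0.333 (exact p = 0.461, adjusted 0.768) and rho -0.536 (exact p = 0.236, adjusted 0.589), and with both Asl probe sets averaged r was 0.10. Without the 2 farthest animals it was -0.464, and with set means removed -0.284. For Asl and Arg1, r was 0.224 (exact p = 0.635, adjusted 0.794) and rho 0.04 (exact p = 0.963, adjusted 0.963). That r was -0.294 without the 2 farthest animals and 0.581 with set means removed. For Glud1 and Cps1, r was 0.009 (exact p = 0.985, adjusted 0.985) and rho -0.250 (exact p = 0.595, adjusted 0.744). That r was 0.564 without the 2 farthest animals and 0.245 with set means removed. None of the 5 passed, and the array sets of 4 and 3 are too small to give a correlation within each.

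**Figure D3:**
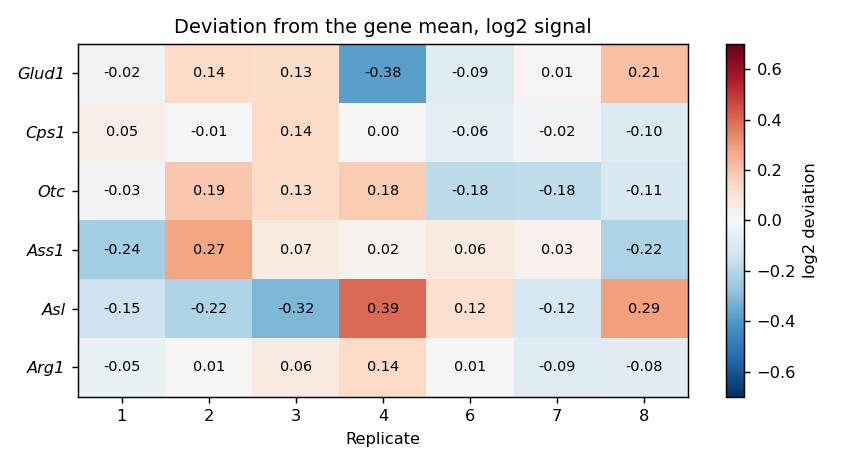
Log2 signal of each urea cycle enzyme minus its mean over the 7 arrays, by replicate (columns), with the value in each cell and the colour scale in log2 units. Replicate 4 is -0.38 in Glud1 and 0.39 in Asl, and no replicate has the same sign in all 6 enzymes.

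Otc was lower on every array of the low spike-in set. It lay between 6836 and 7945 on replicates 1 to 4 and between 6137 and 6430 on replicates 6 to 8, with means of 7571 and 6244 and a difference in mean log2 signal of 0.28. Cps1 did not overlap between the sets either, with 22655 to 25120 against 21331 to 22488 and a difference of 0.10. These were 2 of 6 enzymes higher throughout on the high set. Of all tested genes 3.73% were higher on every array of the high set. No enzyme was lower throughout, against 3.62% of tested genes. Otc did not overlap under no further scaling, median centring or quantile normalization, with differences of 0.28, 0.29 and 0.22. Cps1 overlapped with median centring and with quantile normalization, and with the latter its difference turned to -0.04. Arg1 overlapped, with 13913 to 15836 against 13520 to 14417. With median centring it did not, at a difference of 0.11, and with quantile normalization its difference was -0.01. With the array set as a term in the fit, the residual log2 SD of Otc was 0.08, against 0.16 without it. The part of the array sets in the spread of Otc was not tested, because the sets were read from the data and hold 4 and 3 arrays. Of 12 correlations of the enzymes with the Gapdh and beta-actin ratios, Asl with the beta-actin ratio had the smallest unadjusted p. For r = 0.587 the exact permutation p was 0.166 (adjusted 0.727 over 18 relations). For rho = 0.643 the exact permutation p was 0.139 (adjusted 0.625). Leaving out the 2 arrays with the most extreme beta-actin ratios gave an r of 0.497. The other 6 relations, with the spike-in signal, included the smallest p-values of the 18. For Cps1 the exact permutation p was 0.014 for r (adjusted 0.204) and 0.048 for rho (adjusted 0.398). For Otc the exact permutation p was 0.023 for r (adjusted 0.204) and 0.066 for rho (adjusted 0.398). For Arg1 the exact permutation p was 0.073 for r (adjusted 0.436) and 0.024 for rho (adjusted 0.398). None passed after adjustment. No pooled r is given for these, because the arrays form separate clusters in that signal, too small for an r within each. The p-values carry the same limit.

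**Figure D4:**
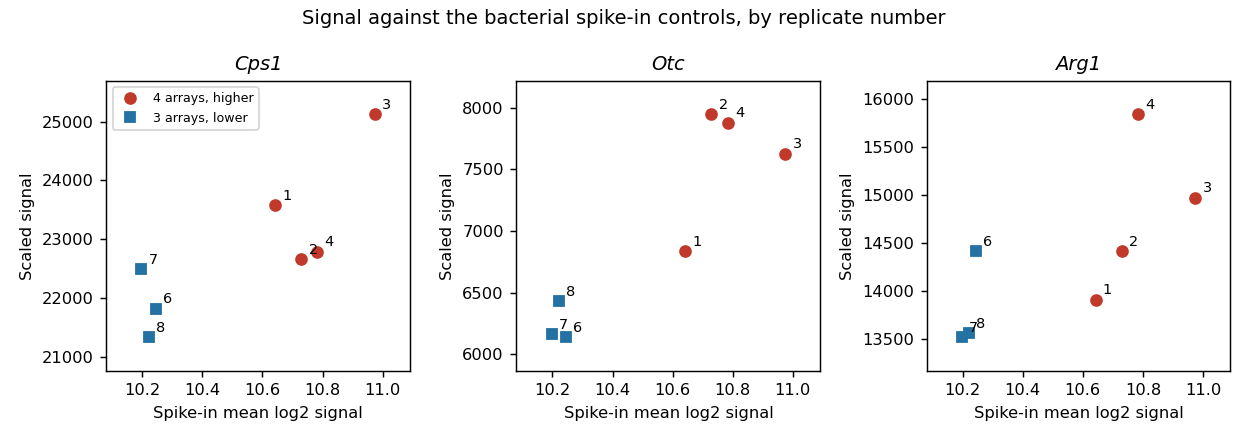
Scaled signal of Cps1, Otc and Arg1 (y axes, not from 0) against the spike-in signal, the mean log2 value of the bacterial controls (x axes), with 1 point per array and its replicate number. Red circles are the 4 arrays at 10.64 to 10.97 and blue squares the 3 at 10.20 to 10.24. Otc on the blue arrays is 6137 to 6430 and on the red ones 6836 to 7945, while Arg1 overlaps.

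For each enzyme, the tested genes with the most similar profile over the 7 arrays were looked up, as a description. Cps1 was most like Serpina1b (r = 0.983), a protease inhibitor gene of the plasma whose probe set can read related genes, and Alb (r = 0.979). Profiles were not compared under other scalings. With quantile normalization the log2 SDs of Cps1 and Alb were 0.03 and 0.03, against 0.08 and 0.14 without it. Of the 18 tested genes with r above 0.9 to Cps1, 7 were among the brightest 1% of named genes, as were 1.85% of tested genes. For the other enzymes that count was 1 of 19 for Glud1, 0 of 20 for Arg1, 0 of 16 for Ass1, 0 of 10 for Otc and 0 of 7 for Asl. The nearest genes to Otc were Nup107, of the nuclear pore, and Txn1, the thioredoxin (r = 0.997 and 0.957). Those nearest to Glud1 were Abcd2 and Saa4 (r = 0.969 and 0.956), to Ass1 Arpp19 and Mcm3 (r = 0.965 and 0.965), to Asl Klhdc2 and Mc5r (r = 0.968 and 0.922), and to Arg1 Tcf7l1 and Coa6 (r = 0.978 and 0.962). Over 7 arrays and 4480 other genes such values are the top of a wide distribution.

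The genes around the cycle were read from 7 lists of 81 genes, of which 55 were on the array and 40 were tested. At an adjusted p under 0.05 none of the 40 showed more spread than genes of its level (0% of all tested genes). At an unadjusted p under 0.05 there were 4, or 10%, against the 6.72% of all tested genes. These were Slc7a2, Hnf4a, G6pc and Sat1, with adjusted p of 0.354, 0.450, 0.366 and 0.663 in the limma-based test. The median log2 SD of the 40 was 0.18, as it was over all tested genes.

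In the list for ammonia and glutamine, Car5a had 4078 ± 399, from 3637 on replicate 2 to 4652 on replicate 1. Car5a is a mitochondrial carbonic anhydrase that provides bicarbonate for Cps1. Got2, the mitochondrial aspartate aminotransferase, had 1684 ± 196. Adk, the adenosine kinase, had 10949 ± 1254 and the deacetylase Sirt3 829 ± 160. Glul, glutamine synthetase, had 1066 ± 170 and ran from 774 on replicate 2 to 1339 on replicate 6. Its log2 SD was 0.24, and 0.13 with both its probe sets averaged. The Adk probe set used here can read related sequences, and those of Glul and Got2 are of a relaxed design. Slc25a15, which carries ornithine into the mitochondrion and citrulline out, had 9956 ± 924 and ran from 8246 on replicate 6 to 11132 on replicate 7. Its log2 SD was 0.14, and 0.08 without replicate 6. Nags and Slc25a13 were not analysed here, for want of a probe set naming only them.

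On the side of arginine and ornithine, the second arginase Arg2 had a mean of 39.1, below the floor, on the brighter of its probe sets. Oat, which turns ornithine towards glutamate, had 9084 ± 1338 and was highest on replicate 3 at 11509. Gamt, of creatine synthesis, had 4503 ± 539. Gatm, the preceding enzyme, had 618 ± 109, with replicate 3 at 393 and the others from 595 to 706. Sat1, which acetylates polyamines, was high on replicates 1 and 8, at 1493 and 1426, and lay between 775 and 1037 elsewhere. Slc7a2, a transporter of arginine, was lowest on replicate 4 at 400, with a median of 1077 and a highest value of 1458 on replicate 2. Its log2 SD was 0.64, and 0.31 without replicate 4. Slc38a4 and Aqp9, carriers of amino acids and of small solutes including urea, had 11161 ± 1128 and 3473 ± 401. Slc1a2, a glutamate transporter, had 428 ± 118. Fumarate hydratase (Fh1) and the malate dehydrogenases Mdh1 and Mdh2, which return the fumarate that Asl releases towards aspartate, had 3123 ± 272, 338 ± 47.6 and 3250 ± 194, and Asns, the asparagine synthetase, and Adsl, of purine synthesis, had 870 ± 82.5 and 332 ± 51.6.

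Among regulators, Cebpa, a transcription factor that drives urea cycle genes, had 11538 ± 640, and Gcgr, the receptor of glucagon, a hormone that raises urea synthesis, had 2247 ± 129. Their log2 SDs were 0.08 and 0.08. Cebpb had 2466 ± 389 and Foxa1 233 ± 39.9. Hnf4a, a nuclear receptor of hepatocytes that binds urea cycle promoters, ran from 639 on replicate 4 over a median of 1382 to 1644 on replicate 7. Its values on the high spike-in set were 639 to 1382 and on the low set 1447 to 1644, with no overlap. Its log2 SD was 0.50, and 0.33 without replicate 4. Replicate 4 was thus the lowest animal in Hnf4a, Slc7a2 and Glud1 and the highest in Arg1 and in the brighter Asl probe set. It was also the lowest in Pck1, Cyp2f2, Foxa1, Slc38a4 and Aqp9 and the highest in Fh1, Mdh2 and Asns. How often each animal was lowest or highest was not counted, and any link between these genes was not tested. Of the 40 tested genes, Alb, Cebpb, Cyp2e1 and Mdh2 were higher on every array of the high set and Gatm and Hnf4a were lower, against 3.73% and 3.62% of all tested genes.

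The lists for the 2 zones of the lobule held other hepatocyte genes. Around the portal vein, where the urea cycle is strongest, 7 of 10 genes were tested. Cyp2f2, a cytochrome P450, had 6656 ± 751, Pck1, of gluconeogenesis, 4223 ± 724, and Ctsc, a lysosomal protease, 955 ± 178. G6pc, which releases free glucose, had 4139 ± 1556 and ran from 2611 on replicate 2 over a median of 3733 to 6834 on replicate 8. Around the central vein 6 of 12 were tested, among them Cyp2e1 at 25440 ± 2768 and Cyp1a2 at 13007 ± 2045, both cytochromes P450. The median log2 SD was 0.17 in the portal list, 0.21 in the central list and 0.18 over all tested genes.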

How the data were processed

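Intensities of Affymetrix mouse U74Av2 arrays (1 colour), scanned on a Hewlett-Packard instrument per the labels, were deposited on a linear scale. The image software and any genome build are not given in the sources used. The deposited values already shared a scale: the mean after trimming 2% at each end was 500.4 on every array. Each array was set to that mean, values below 0.1 of it (50.04) were raised to it and log2 was taken. The brightest probe set represented a gene, and the 4481 genes whose mean reached 0.4 of that trimmed mean (200.1) were tested. Displayed signals precede the floor. The intercept-only limma 3.58.1 fit (R 4.3.3) used a robust prior that follows the level (prior degrees of freedom 5.61) and an upper-tail F test. It was also run on simulated data, the outcome of which is not given here. Correlations used exact tests over all 5040 pairings. Python 3.11.15, numpy 2.4.6, pandas 2.3.3, scipy 1.17.1 and matplotlib 3.10.9 were used. The spike-in sets split the mean log2 signal of 9 control probe sets at its widest gap. Named genes were the enzymes, in each list the 3 brightest tested genes and the 2 with the largest log2 SD, 7 fixed ammonia and arginine genes, and 2 genes most like each enzyme; in marker lists, the brightest gene. Vil1 and the enzymes' place between spike-in sets were chosen after values were seen. The enzymes and lists were chosen with earlier results of these data known. Alternatives changed scaling, floor, filter, probe set rule, prior, array set term and arrays. The number of arrays limits the precision.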

Additional observations from a re-analysis of the deposited data

Results flagged for a closer look

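In 3 genes named around the cycle or as markers 1 array lay apart from the other 6 by Dixon's criterion, which compares the gap to the nearest neighbour with the whole range. Chance gives such a gap in about 1 in 20 groups, and 49 genes were examined. Gatm and Slc1a2 were named for a large log2 SD in these same values, so that rate does not apply to them. The share of such gaps over all tested genes was not computed. None of the 6 urea cycle enzymes was among them. Gatm, the first enzyme of creatine synthesis, had a share of 0.647, with replicate 3 at 393 and the next value at 595. Slc1a2, a glutamate transporter, had 0.598, with replicate 6 at 675 and the next value at 470. Elane, a neutrophil protease included as a marker of another cell type, had 0.618 around a mean of 237.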

How the results depend on the processing

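Under all 20 alternatives to the spread test no urea cycle enzyme passed, with adjusted p from 0.979 to 1.0 in the limma-based test. Without the filter on dim genes it was 0.222, where the prior had 0.762 degrees of freedom and 110 of 8251 genes reached an unadjusted p under 0.05. Asl fell below the filter of 0.8 and has no value there. Over all genes 0 passed (301 unadjusted) and 1 passed when an offset replaced the floor. Leaving out each replicate gave 0 to 1, with 1 without replicate 4 and 1 without replicate 6. Mean levels moved by less than 1 SD, except that averaging both Glud1 probe sets gave a mean log2 level of 9.06, against 11.98. No correlation of successive enzymes passed under an alternative, but signs changed. Leaving out replicates gave r of -0.385 to 0.362 for Glud1 and Cps1, 0.448 to 0.660 for Cps1 and Otc, 0.164 to 0.608 for Otc and Ass1, -0.608 to 0.156 for Ass1 and Asl and -0.544 to 0.589 for Asl and Arg1. Sign changes came without replicates 3 and 6 for Glud1 and Cps1 (-0.385 and -0.07), without replicate 8 for Ass1 and Asl (0.156) and without replicate 4 for Asl and Arg1 (-0.544). Cps1 and Otc had -0.736 with quantile normalization, where the log2 SD of Cps1 was 0.03, and -0.344 with array-set means removed. Ass1 and Asl had 0.10 with all probe sets averaged. The cause was not tested. The set overlaps under other scalings and the alternatives for the other named genes were chosen after seeing the data. Of those genes not given above, the log2 SD moved by over 1.5 times for Alb and Cyp2e1 with quantile normalization (0.14 to 0.03 and 0.16 to 0.05), for Asns, Got2, Oat and Ctsc with probe sets averaged (to 0.07, 0.09, 0.09 and 0.13), for Cebpb and Mdh2 with the array set as a term (0.23 to 0.14 and 0.09 to 0.04), for Gatm without replicate 3 (0.30 to 0.11) and for Slc1a2 without replicate 6 (0.35 to 0.17). For Asns and Got2 the ratio was 2, which averaging with a second probe set held at the floor on every array gives by construction. No paired analysis was possible because all samples formed 1 group.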
